A study of Homo sapiens with 72 samples.

Results

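The replication-independent histone variants studied here are 9 genes of the 62266 in the table, picked by name: H3-3A and H3-3B (histone H3.3), H2AZ1 and H2AZ2 (H2A.Z), H2AX, H2AJ, MACROH2A1, MACROH2A2 and the linker histone gene H1-10. All 9 had enough counts to be tested in every line. Canonical histones are made in S phase to package new DNA, from clustered genes whose mRNAs end in a stem-loop. Most variants are made throughout the cell cycle, mainly from polyadenylated mRNAs, with H2AX a partial exception. Chaperones exchange variants into existing chromatin: HIRA or DAXX with ATRX for H3.3, and the SRCAP and p400 complexes for H2A.Z. H2A.X is the form phosphorylated around DNA breaks, macroH2A carries a large macrodomain and marks repressed chromatin, H2A.J accumulates in senescent cells, and H1.10 binds linker DNA.

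Libraries came from 3 human epithelial lines immortalized with HPV16 E6/E7: Ect1/E6E7 from the ectocervix (Ecto), End1/E6E7 from the endocervix (Endo) and VK2/E6E7 from the vagina (VK2). Cells were non-treated (NT) or received a polyamine for 4 h, which was 4 mM putrescine (PUT), 400 µM spermidine (SPD) or 400 µM spermine (SPM). Live Gardnerella vaginalis (GV, 10000000 CFU per well) was then added for 24 h, or no bacteria were added (noGV). Each of the 8 groups per line has 3 libraries, 72 in all. The E6 and E7 oncoproteins, which every group carries, disable p53 and RB, and each tissue is represented by a single line. As nothing states that the 3 libraries are separate cultures, p-values measure the spread between libraries, which may be technical. The RNA is bulk, so fewer cells of a state and less RNA per cell cannot be told apart.

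Total counts per library ran from 20152143 to 42767996 (median 31872238.5). CPM are counts in 1000000 of the scaled library for the members, and of the unscaled total counts for the markers given here. All 8 epithelial markers checked had a median of at least 1 CPM in each line, with KRT5 the most abundant. Leukocyte markers summed to between 31.9 and 129 CPM, mostly CD68, fibroblast markers to between 13.6 and 77.3 CPM, mostly COL1A1, and endothelial markers to at most 4.54 CPM. No marker on these lists was at 0 in every library of a line. Markers moved with the treatments too. With GV alone the leukocyte sum went from between 53.2 and 54.5 to between 72.9 and 76.6 CPM in Ecto, from between 35.99 and 38.96 to between 76.97 and 80.95 CPM in Endo and from between 67.6 and 71.8 to between 108 and 117 CPM in VK2 cells. The fibroblast sum went from 14.73 to 16.02 up to 27.2 to 32.3 CPM in Ecto, from 27.56 to 32.02 up to 39.1 to 41.9 CPM in Endo and from 23.8 to 25.6 up to 32.8 to 36.8 CPM in VK2 cells. CD68 rose with GV alone by 0.40, 1.02 and 0.73 and COL1A1 by 0.81, 0.37 and 0.51 on the log2 scale (Ecto, Endo and VK2, edgeR, adjusted p under 0.05). Of the 8 epithelial markers, 2 rose and 5 fell with GV alone in Ecto, 3 and 3 in Endo and 3 and 1 in VK2. With PUT+GV the fibroblast sum reached between 55.4 and 77.3 CPM over the lines, and with SPM+GV CD68 fell in each line (-0.42, -0.42 and -0.62). The part of these markers in the results was not tested.

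The paired H3.3 and H2A.Z genes differ in DNA while encoding the same or nearly the same protein, which is what allows short reads to tell them apart. The proteins of H3-3A (chr1:226061851-226072019, plus strand, GRCh38) and H3-3B (chr17:75776434-75785893, minus strand) are both 136 residues long and identical, although 88 of their 411 coding bases differ. H2AZ1 (chr4:99948086-99950355, minus strand) and H2AZ2 (chr7:44826791-44848087, minus strand) differ at 3 of 128 residues and 76 of 387 coding bases. The first 120 coding bases of each, taken from the release 44 annotation and its transcript sequences, are shown to make the difference visible, with capitals where the pair differs:
H3-3A: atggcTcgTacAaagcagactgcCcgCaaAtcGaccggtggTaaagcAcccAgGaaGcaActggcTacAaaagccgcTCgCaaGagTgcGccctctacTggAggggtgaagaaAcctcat
H3-3B: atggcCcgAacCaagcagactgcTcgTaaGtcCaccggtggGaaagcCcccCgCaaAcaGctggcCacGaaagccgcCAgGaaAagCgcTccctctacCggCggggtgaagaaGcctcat
H2AZ1: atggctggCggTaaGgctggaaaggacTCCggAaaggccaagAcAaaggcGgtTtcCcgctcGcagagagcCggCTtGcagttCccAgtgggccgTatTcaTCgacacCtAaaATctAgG
H2AZ2: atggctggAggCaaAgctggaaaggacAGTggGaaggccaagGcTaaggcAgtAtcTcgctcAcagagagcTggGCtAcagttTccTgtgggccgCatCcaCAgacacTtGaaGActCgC
In these stretches the H3.3 pair differs at 24 bases and 0 amino acids, with no identical run longer than 11 bases. The H2A.Z pair differs at 29 bases and 2 amino acids, with no identical run longer than 12 bases. MACROH2A1 (chr5:135334381-135399914, minus strand) and MACROH2A2 (chr10:70052544-70112282, plus strand) both encode 372 residues and share 67.7% of them.

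The genes differ in structure as well. H2AX (chr11:119093874-119095465, minus strand), H2AJ (chr12:14774405-14778002, plus strand) and H1-10 (chr3:129314771-129316286, minus strand) have a canonical transcript of 1 exon, like the clustered histone genes, and a GC content of 66.8%, 63.1% and 68.6%. The H3.3 genes have 4 exons, the H2A.Z genes 5 and the macroH2A genes 9, with GC contents from 42.8% to 52.9%.

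Upstream DNA is shown for H2AX and H1-10, which rose together in many of the comparisons below, though not with SPM alone. The H2AX stretch holds the CCAAT box, the binding sequence of NF-Y, and that of H1-10 does not, while both hold TATAAA. These are the 250 bases before the transcription start in RefSeq (GRCh38.p14), 5′ to 3′ on the gene's strand, with CCAAT or its reverse complement and TATAAA in capitals:
H2AX (chr11:119095466-119095715, minus strand): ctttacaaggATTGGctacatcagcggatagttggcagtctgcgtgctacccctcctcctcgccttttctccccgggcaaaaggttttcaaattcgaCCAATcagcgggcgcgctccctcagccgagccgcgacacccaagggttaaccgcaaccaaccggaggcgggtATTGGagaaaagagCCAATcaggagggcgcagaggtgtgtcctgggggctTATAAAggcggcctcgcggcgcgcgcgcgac
H1-10 (chr3:129316287-129316536, minus strand): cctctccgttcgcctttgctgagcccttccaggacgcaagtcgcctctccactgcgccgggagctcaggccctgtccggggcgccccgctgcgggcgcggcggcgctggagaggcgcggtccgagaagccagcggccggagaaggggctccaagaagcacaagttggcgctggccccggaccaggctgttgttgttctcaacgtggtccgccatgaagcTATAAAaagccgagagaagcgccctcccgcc
RefSeq promoters, 250 bases before to 50 after each start, matched all 9 members. CCAAT on either strand, which overlapped no other motif searched, occurred 4 times in H3-3B, H2AZ2 and H2AX, 3 times in H2AZ1 and H2AJ, 2 times at 1 of the 2 starts of MACROH2A1, and once at 3 of the 4 starts of H3-3A. Of all 35116 promoters 34.6% held at least 1 and 3.26% held 3 or more. H1-10 and MACROH2A2 had none. TATAAA, present in 11.5% of promoters on either strand, lay 29 to 31 bases before the start of H3-3B, H2AZ1, H2AX and H1-10. Neither TGACGTCA, TTTNGCGC nor TGANTCA occurred in these windows of a member, against 1.85%, 1.79% and 7.71% of all promoters. The part of any motif in the changes below was not tested.

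In untreated cells H2AZ1 was the most abundant variant mRNA per length and MACROH2A2 the least in all 3 lines. Levels per gene are given as CPM per kilobase of the canonical transcript (mean ± SD, n = 3), because longer transcripts yield more reads. H2AZ1 stood at 457 ± 11.6 in Ecto cells, 465 ± 3.63 in Endo cells and 361 ± 4.80 in VK2 cells, and MACROH2A2 at 16.2 ± 0.886, 13.8 ± 0.720 and 14.4 ± 0.630. H3-3A ranked next in each line (173 ± 12.6, 218 ± 30.8 and 174 ± 15.9), followed by MACROH2A1 (155 ± 2.82, 187 ± 0.135 and 142 ± 1.94). H3-3B and H1-10 came after these. H2AX, H2AZ2 and H2AJ formed the lower ranks, between 27.5 and 96.5. Neighbours whose libraries overlapped were H3-3B and H1-10 in Ecto, H3-3A and MACROH2A1 in Endo, and in VK2 cells both MACROH2A1 with H1-10 and H1-10 with H3-3B. All other neighbours in the order were separated. The middle of the order rests on the length used: over the union of all annotated exons H1-10 ranked 2 and MACROH2A1 7 in each line, while H2AZ1 and MACROH2A2 kept their places.

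The lines differed most in H2AX and H2AJ. H2AX measured 47.8, 48.1 and 48.2 CPM in the 3 untreated Ecto libraries, 149, 165 and 148 CPM in Endo and 75.5, 79.5 and 76.2 CPM in VK2. Endo cells held more than Ecto (log2 Ecto minus Endo -1.68 ± 0.073 SE, adjusted p = 8.8e-29, edgeR) and more than VK2 cells (1.00 ± 0.071, adjusted p = 7.9e-19), with no overlap of libraries. H2AJ was at 28.7, 29.1 and 29.5 CPM in Ecto cells, 43.3, 47.5 and 45.6 CPM in Endo cells and 15.6, 17.2 and 18.3 CPM in VK2 cells, where it was lowest (log2 Endo minus VK2 1.42 ± 0.067, adjusted p = 1.2e-28). In all, 8 of 9 members differed between Ecto and Endo, 7 between Ecto and VK2 and 7 between Endo and VK2 cells. Over all 21195 genes tested the shares were 63.9%, 63.8% and 59.6%. Of the 8 between Ecto and Endo, 7 were lower in Ecto and only MACROH2A2 was higher (0.22 ± 0.058). MACROH2A2 did not pass between Endo and VK2 cells (-0.061 ± 0.059, adjusted p = 0.38). H3-3A lost its level call between Ecto and Endo cells without replicate 1 or 2, or Ecto NT+noGV replicate 2 or 3, or Endo NT+noGV replicate 1 or 3 (-0.41 to -0.23), and under scaling by total counts (-0.22). MACROH2A2 lost its level call between Ecto and VK2 cells without replicate 2 or 3, or Ecto NT+noGV replicate 2, or VK2 NT+noGV replicate 1 or 3 (0.14 to 0.16). H3-3A lost its level call between Endo and VK2 cells without replicate 1, 2 or 3, or Endo NT+noGV replicate 1 or 3, or VK2 NT+noGV replicate 2 or 3 (0.18 to 0.40).

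**Figure D1:**
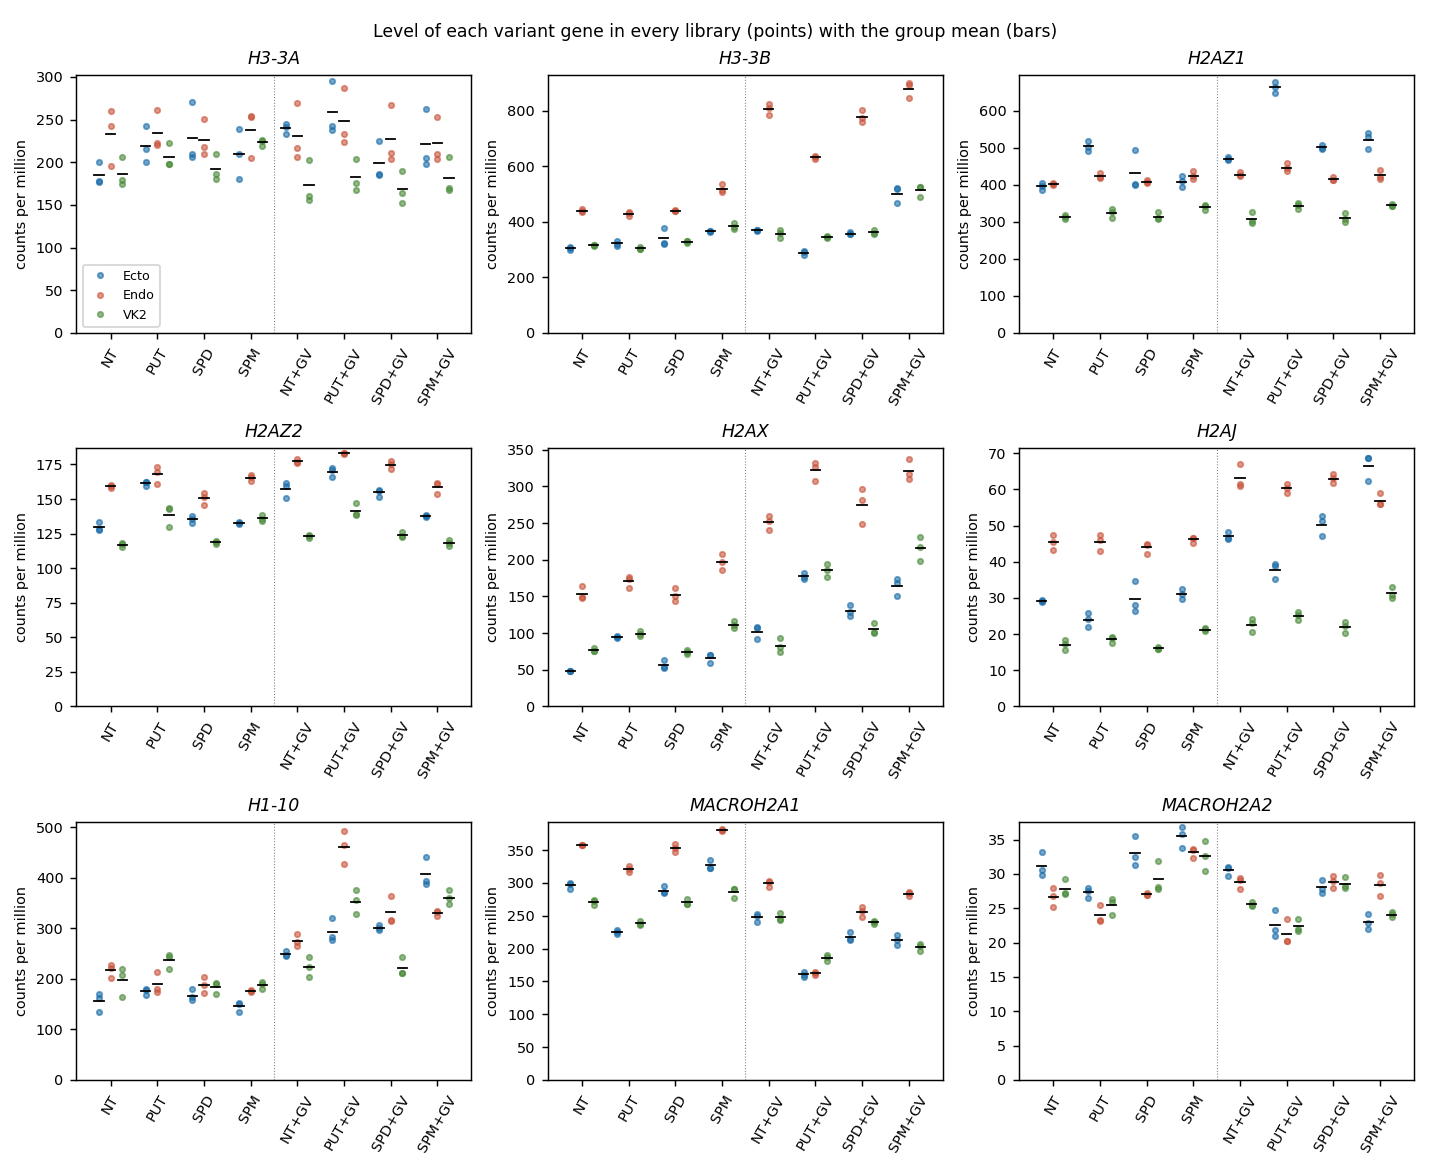
Level of each variant gene in all 72 libraries, as CPM (vertical axis, from 0) over the 8 conditions, with conditions without GV left of the dotted line. Points are libraries coloured by line and bars are group means. H2AX lies highest in Endo cells in every condition, and with GV alone the H3-3B libraries of Endo cells lie between 784 and 824, above all others in NT+GV.

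The first question was how the variants respond to GV alone (NT+GV against NT+noGV). H2AJ and the H3-3B gene of histone H3.3 were higher with GV in all 3 lines, and MACROH2A1 was lower in all 3. H2AX and H1-10 were higher in the cervical lines only. In Ecto cells 7 members rose and 1 fell, where 20.9% of all genes tested rose and 23.7% fell. In Endo cells 6 rose and 1 fell (all genes, 25.7% and 28.7%), and in VK2 cells 2 rose and 1 fell (all genes, 13.9% and 12.5%). The median log2 fold change of the 9 was 0.27 in Ecto cells, 0.16 in Endo cells and 0.092 in VK2 cells, beside 0.0029, -0.000889 and 0.0014 over all genes. Scaled by total counts instead of TMM, the share of called genes that were higher was 66.4% in Ecto (TMM, 46.9%) and 57.4% in Endo (TMM, 47.2%).

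H2AX went from 47.8, 48.1 and 48.2 CPM to 91.3, 108 and 107 CPM in Ecto cells, and every exposed library lay above every untreated one. The log2 fold change was 1.08 ± 0.072 (± SE, with an adjusted p of 8.0e-12), the only member past 2-fold with GV alone in any line. In Endo cells H2AX rose from 149, 165 and 148 to 253, 260.2 and 240.4 CPM (0.71 ± 0.061). In VK2 cells the libraries overlapped, at 75.5, 79.5 and 76.2 CPM without and 74.7, 92.8 and 81.2 CPM with GV (0.12 ± 0.068, adjusted p = 0.22).

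H3-3B, 1 of the 2 genes for histone H3.3, had its largest response in Endo cells. There it rose from 447, 437 and 436 to 784, 811 and 824 CPM (log2 fold change 0.88 ± 0.032, adjusted p = 1.7e-20). The Ecto libraries moved from 306, 299.9 and 308 to 368, 371 and 372 CPM (0.27 ± 0.050) and the VK2 libraries from 318, 315 and 318 to 341, 369 and 359 CPM (0.19 ± 0.035). All 3 rises passed, with no overlap of libraries. H3-3A passed in Ecto cells only, where it rose from 201, 177 and 178 to 233, 245 and 241 CPM (0.37 ± 0.13, adjusted p = 0.033), and stood at -0.0060 in Endo and -0.086 in VK2 cells.

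H2AJ rose in every line, from 28.7, 29.1 and 29.5 to 46.2, 48.3 and 46.7 CPM in Ecto (log2 fold change 0.68 ± 0.074), from 43.3, 47.5 and 45.6 to 61.5, 67.1 and 61.1 CPM in Endo (0.48 ± 0.045) and from 15.6, 17.2 and 18.3 to 23.2, 24.0 and 20.7 CPM in VK2 cells (0.42 ± 0.067). The linker histone gene H1-10 rose from 171, 161 and 134 to 244, 248 and 255 CPM in Ecto (0.67 ± 0.072) and from 228, 222 and 201 to 288, 265 and 272 CPM in Endo cells (0.35 ± 0.079). In VK2 cells it did not pass (0.19 ± 0.10, adjusted p = 0.17), and its libraries overlapped. The H2A.Z genes changed little: H2AZ1 by 0.24 ± 0.056 in Ecto and 0.094 ± 0.030 in Endo, and H2AZ2 by 0.27 ± 0.038 and 0.16 ± 0.032, all 4 passing, with neither gene passing in VK2 cells.

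MACROH2A1 was the member that fell. Its libraries measured 298, 290.2 and 301 CPM without and 253, 249 and 241 CPM with GV in Ecto (log2 fold change -0.26 ± 0.041), and 358, 359 and 358 against 303, 302 and 293 CPM in Endo cells (-0.25 ± 0.028). In VK2 cells they measured 272, 267 and 274 against 244, 254 and 246 CPM (-0.11 ± 0.032). The groups did not overlap in any line. MACROH2A2 passed in none, at -0.036 ± 0.062 in Ecto cells, 0.12 ± 0.056 in Endo cells and -0.10 ± 0.058 in VK2 cells. H3-3A lost its GV call in Ecto cells without NT+GV replicate 1, 2 or 3, or NT+noGV replicate 2 or 3 (0.34 to 0.39). H2AZ1 lost its GV call in Endo cells under no filter on low counts (0.085).

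Putrescine before GV (PUT+GV against NT+GV) lowered both macroH2A genes and raised H2AX and H1-10 in all 3 lines. The NT+GV libraries serve as controls here and for the other polyamines, so these comparisons are not independent of one another or of GV alone. In Ecto cells 4 members rose and 4 fell (all genes, 31.5% and 24.9%), in Endo 2 and 3 (27.9% and 28.2%) and in VK2 cells 5 and 2 (29% and 31.4%). MACROH2A1 dropped furthest in Endo cells, to 165, 163 and 160.2 CPM, against 303, 302 and 293 CPM with GV alone (log2 fold change -0.87 ± 0.029, adjusted p = 8.4e-21). It reached 160.2, 165 and 157 CPM in Ecto (-0.57 ± 0.041) and 181, 189.7 and 188 CPM in VK2 cells (-0.41 ± 0.032). MACROH2A2 fell as well, at log2 fold changes of -0.39 ± 0.063 in Ecto cells, -0.43 ± 0.056 in Endo cells and -0.19 ± 0.058 in VK2 cells, to a group mean between 21.3 and 22.5 CPM. Scaled by total counts instead of TMM, the share of called genes that were higher was 69.8% in Endo (TMM, 49.7%) and 71.2% in VK2 (TMM, 48.01%).

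H2AX rose most in VK2 cells, from 74.7, 92.8 and 81.2 CPM with GV alone to 186, 194 and 176 CPM after PUT (log2 fold change 1.17 ± 0.066, adjusted p = 4.9e-13). Ecto libraries reached 182, 176 and 174 CPM (0.85 ± 0.070) and Endo libraries 307, 327 and 333 CPM (0.37 ± 0.059). H1-10 rose to 464, 426 and 493 CPM in Endo (0.75 ± 0.078), its highest level in any group, to 355, 328 and 375 CPM in VK2 (0.67 ± 0.10) and to 319.6, 284 and 276 CPM in Ecto cells (0.29 ± 0.071). The H3.3 and H2A.Z genes split. H3-3B fell in Ecto (-0.31 ± 0.050) and Endo cells (-0.34 ± 0.032) and stood at -0.038 ± 0.035 in VK2 (0.15 and called higher when scaled by total counts), while H2AZ1 rose in Ecto, to 648, 663 and 679 CPM (0.55 ± 0.056), and in VK2 cells (0.16 ± 0.037). In Endo cells neither H2A.Z gene passed, but both were called higher when scaled by total counts (H2AZ1 0.21 and H2AZ2 0.20). H2AZ1 was also called higher there in DESeq2 (0.058) and with the replicate number as a block (0.068). H2AJ fell in Ecto (-0.27 ± 0.073) and rose in VK2 cells (0.16 ± 0.064). H2AZ2 lost its PUT+GV call in Ecto cells without PUT+GV replicate 3 (0.10). H2AJ lost its PUT+GV call in VK2 cells without NT+GV replicate 1 or 3, or PUT+GV replicate 2 or 3 (0.079 to 0.17), and under no filter on low counts (0.15). MACROH2A2 lost its PUT+GV call in VK2 cells under scaling by total counts (-0.0018).

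Spermine before GV raised H2AX, H1-10 and H3-3B in all 3 lines. In Ecto cells 5 members rose and 3 fell (all genes, 28.5% and 27.5%), in Endo 3 and 3 (21.9% and 21.1%) and in VK2 5 and 1 (27.9% and 30.3%). The largest member change of any within-line comparison was that of H2AX in VK2 cells, from 74.7, 92.8 and 81.2 to 198, 231 and 218 CPM (log2 fold change 1.45 ± 0.066, adjusted p = 1.4e-14). Ecto libraries reached 151, 168 and 174 CPM (0.74 ± 0.070) and Endo libraries 309.9, 338 and 317 CPM (0.37 ± 0.060). H1-10 rose to 394, 388 and 440.5 CPM in Ecto (0.76 ± 0.072), 325, 335 and 333 CPM in Endo (0.28 ± 0.079) and 360.1, 348 and 375 CPM in VK2 cells (0.76 ± 0.10). No SPM+GV library of H2AX or H1-10 overlapped an NT+GV library of its line. 

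H3-3B rose with SPM+GV to 490.0, 526 and 525 CPM in VK2 (0.59 ± 0.035), 466, 522 and 516 CPM in Ecto (0.49 ± 0.050) and 845, 894 and 899 CPM in Endo cells (0.13 ± 0.032), opposite in sign to PUT+GV in the cervical lines. H2AJ rose in Ecto (0.55 ± 0.071) and VK2 (0.54 ± 0.065) and fell in Endo cells (-0.14 ± 0.044). H2AZ1 rose in Ecto (0.20 ± 0.056) and VK2 (0.22 ± 0.037), while H2AZ2 fell in Ecto (-0.14 ± 0.038) and Endo cells (-0.15 ± 0.032). MACROH2A1 fell in all 3 lines, at -0.069 ± 0.029 with an adjusted p = 0.049 in Endo cells, -0.17 ± 0.041 in Ecto and -0.23 ± 0.033 in VK2 cells. MACROH2A2 fell in Ecto cells (-0.36 ± 0.063). H2AJ lost its SPM+GV call in Endo cells without NT+GV replicate 2, or SPM+GV replicate 1 or 3 (-0.12 to -0.10). MACROH2A1 lost its SPM+GV call in Endo cells without NT+GV replicate 1 or 2, or SPM+GV replicate 1 or 3 (-0.069 to -0.055), and under RLE size factors (-0.067), and under no filter on low counts (-0.078).

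**Figure D2:**
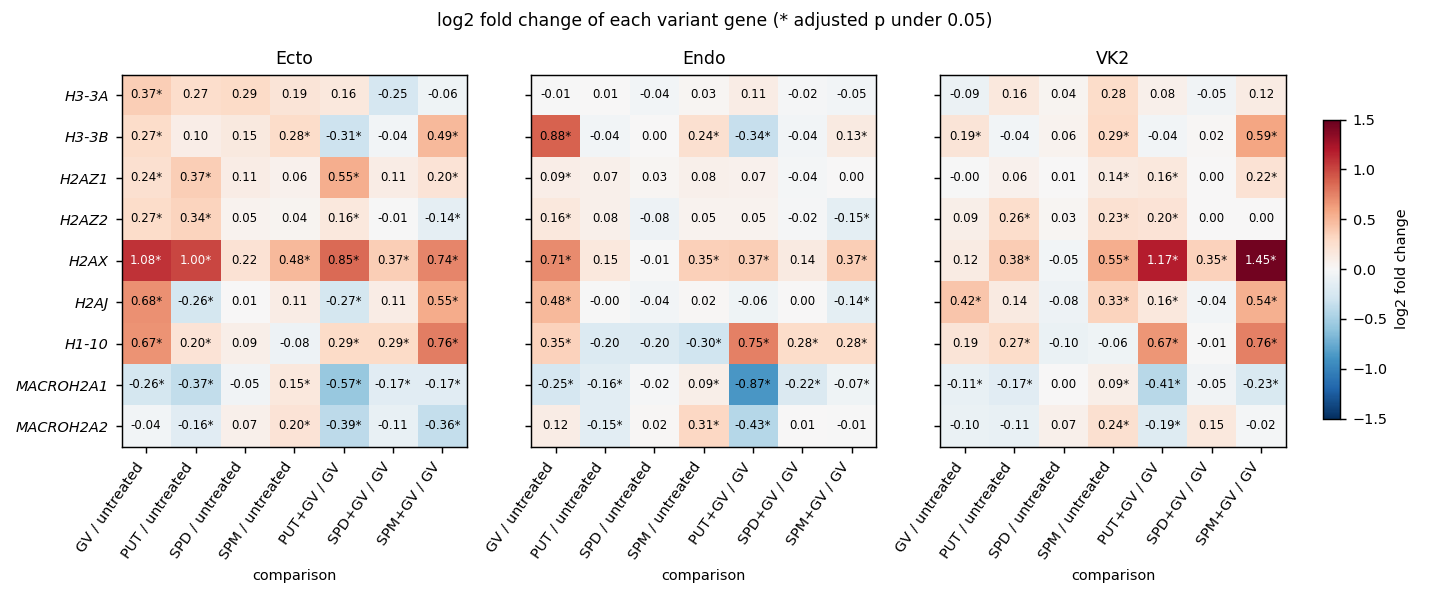
Log2 fold change of each variant gene in 7 comparisons per line, written in each cell and coloured from blue (lower) to red (higher), with an asterisk at an adjusted p under 0.05. The darkest red is H2AX in VK2 cells with SPM+GV (1.45), the darkest blue is MACROH2A1 in Endo cells with PUT+GV (-0.87), and the SPD column without GV holds no asterisk.

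Spermidine and spermine were given at the same dose, 400 µM for 4 h, and spermine is spermidine with an added aminopropyl group, so this pair can be compared directly. Spermidine moved few members. SPD+GV against NT+GV raised 2 and lowered 1 in Ecto (all genes, 6.53% and 6.6%), 1 and 1 in Endo (5.22% and 8.71%), and 1 and 0 in VK2 cells (4.84% and 7.87%). Those that rose were H2AX in Ecto (0.37 ± 0.069) and VK2 (0.35 ± 0.067) and H1-10 in Ecto (0.29 ± 0.071) and Endo cells (0.28 ± 0.078). MACROH2A1 fell in Ecto (-0.17 ± 0.041) and Endo cells (-0.22 ± 0.028). H1-10 lost its SPD+GV call in Endo cells without NT+GV replicate 2 or 3, or SPD+GV replicate 3 (0.19 to 0.25). Scaled by total counts instead of TMM, the share of called genes that were higher was 74.6% in Ecto (TMM, 49.7%), 77.6% in Endo (TMM, 37.5%) and 61.5% in VK2 (TMM, 38.1%).

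Tested directly (SPM+GV against SPD+GV, with p-values adjusted over all genes in each of the 3 lines), 6 members differed in Ecto cells, 5 in Endo cells and 7 in VK2 cells, where 53.8%, 44.6% and 52.6% of all genes did. H2AX was higher with SPM in each line, by most in VK2 cells: 198, 231 and 218 against 102, 114 and 101 CPM (log2 SPM minus SPD 1.10 ± 0.064, adjusted p = 1.8e-12), then 0.37 ± 0.069 in Ecto and 0.23 ± 0.059 in Endo cells. H3-3B was also higher with SPM in each line (0.52 ± 0.050, 0.18 ± 0.032 and 0.57 ± 0.035). H1-10 was higher with SPM in Ecto (0.48 ± 0.071) and VK2 cells (0.77 ± 0.10), but in Endo cells the difference was -0.0013 ± 0.078 (95% interval -0.17 to 0.16). MACROH2A1 was higher with SPM in Endo (0.15 ± 0.029), lower in VK2 (-0.18 ± 0.033) and not called in Ecto cells (0.0054 ± 0.041, 95% interval -0.079 to 0.089), where scaling by total counts called it lower (-0.10). H3-3A was called in no line, with wide intervals: -0.088 to 0.47 in Ecto cells, -0.35 to 0.29 in Endo cells and -0.082 to 0.42 in VK2 cells. In Ecto cells it passed without a filter on low counts (0.19, adjusted p = 0.0043, edgeR) and with the replicate number as a block (0.19, adjusted p = 0.0495, edgeR). Putrescine, the diamine, was given at 4 mM, so its values stand beside the others without a comparison. H2AZ2 lost its SPM against SPD call in Ecto cells under no filter on low counts (-0.13).

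Without bacteria, each polyamine was compared with NT+noGV. No member passed with spermidine in any line in edgeR, where 0.303% of all genes in Ecto cells, 0.181% in Endo cells and 0.46% in VK2 cells did. At an unadjusted p under 0.05 there were 3, 2 and 0 members, and DESeq2 also called none. Putrescine moved 7 members in Ecto (4 higher), 2 in Endo (0 higher) and 4 in VK2 cells (3 higher), where 46.8%, 31.9% and 45% of genes passed. DESeq2 also called H2AZ1 (0.078), H2AZ2 (0.080) and H2AX (0.16) higher in Endo cells. In Ecto cells PUT alone took H2AX from 47.8, 48.1 and 48.2 to 95.8, 95.2 and 92.9 CPM (log2 fold change 1.00 ± 0.072, adjusted p = 2.8e-11), beside 91.3, 108 and 107 CPM with GV alone. MACROH2A1 fell with PUT alone in all 3 lines (-0.37 ± 0.041 in Ecto cells, -0.16 ± 0.028 in Endo cells and -0.17 ± 0.032 in VK2 cells). H2AJ lost its PUT call in Ecto cells without PUT+noGV replicate 1 (-0.19), and under scaling by total counts (-0.17). H1-10 lost its PUT call in Ecto cells without NT+noGV replicate 3, or PUT+noGV replicate 1 or 2 (0.11 to 0.19). MACROH2A2 lost its PUT call in Ecto cells without NT+noGV replicate 2 or 3, or PUT+noGV replicate 1, 2 or 3 (-0.17 to -0.12), and under scaling by total counts (-0.077), and under no filter on low counts (-0.16). MACROH2A2 lost its PUT call in Endo cells without NT+noGV replicate 1 or 2, or PUT+noGV replicate 1 or 3 (-0.15 to -0.11), and in DESeq2 (-0.15), and under no filter on low counts (-0.15). H1-10 lost its PUT call in VK2 cells without NT+noGV replicate 3, or PUT+noGV replicate 1 or 2 (0.16 to 0.26), and under no filter on low counts (0.27).

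Spermine without bacteria moved 4 members in Ecto cells, 5 in Endo cells and 7 in VK2 cells (all genes, 23.5%, 18.1% and 33%). Here the macroH2A genes rose in every line, MACROH2A2 by 0.20 ± 0.061 in Ecto cells, 0.31 ± 0.055 in Endo cells and 0.24 ± 0.056 in VK2 cells, and MACROH2A1 by 0.15 ± 0.041, 0.086 ± 0.028 and 0.093 ± 0.032. H3-3B (0.28 ± 0.050, 0.24 ± 0.032 and 0.29 ± 0.035) and H2AX (0.48 ± 0.072, 0.35 ± 0.061 and 0.55 ± 0.066) rose in every line too. H1-10 fell in Endo cells, from 228, 222 and 201 to 178, 177 and 174 CPM (-0.30 ± 0.080), and did not pass in Ecto (-0.078 ± 0.072) or VK2 cells (-0.062 ± 0.10). MACROH2A2 lost its SPM call in Ecto cells without NT+noGV replicate 1 or 3, or SPM+noGV replicate 1 or 2 (0.17 to 0.19). H1-10 lost its SPM call in Endo cells without NT+noGV replicate 1 or 2 (-0.28 to -0.26). MACROH2A1 lost its SPM call in Endo cells without NT+noGV replicate 1, 2 or 3, or SPM+noGV replicate 1 or 2 (0.086 to 0.091), and under no filter on low counts (0.10). MACROH2A1 lost its SPM call in VK2 cells without NT+noGV replicate 1, 2 or 3, or SPM+noGV replicate 1 or 3 (0.072 to 0.094), and under scaling by total counts (0.068), and under no filter on low counts (0.084).

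Whether a polyamine acts differently once GV is present was tested by an interaction term, the polyamine's log2 change with GV minus its change without. For spermine 7 members passed in Ecto cells, 4 in Endo cells and 6 in VK2 cells (all genes, 36.3%, 24.3% and 38.9%). H1-10 had a positive term in each line, 0.84 ± 0.10 in Ecto cells, 0.58 ± 0.11 in Endo cells and 0.82 ± 0.14 in VK2 cells, after a rise with GV and no rise without GV in each line. Both macroH2A genes had negative terms in each line, -0.32 ± 0.058, -0.16 ± 0.040 and -0.32 ± 0.046 for MACROH2A1 and -0.56 ± 0.088, -0.32 ± 0.078 and -0.27 ± 0.082 for MACROH2A2. H2AX had the largest term in VK2 cells (0.90 ± 0.093), a smaller one in Ecto (0.26 ± 0.10, adjusted p = 0.047) and none called in Endo cells (0.011 ± 0.085). H3-3B lost its spermine interaction call in Ecto cells without NT+GV replicate 1, or NT+noGV replicate 3, or SPM+GV replicate 2 or 3, or SPM+noGV replicate 2 (0.18 to 0.20), and under scaling by total counts (0.15), and under no filter on low counts (0.19). H2AZ2 lost its spermine interaction call in Ecto cells under no filter on low counts (-0.20). H2AX lost its spermine interaction call in Ecto cells without NT+GV replicate 1, or NT+noGV replicate 1, 2 or 3, or SPM+GV replicate 2 or 3, or SPM+noGV replicate 3 (0.17 to 0.26), and under scaling by total counts (0.20). MACROH2A2 lost its spermine interaction call in VK2 cells under scaling by total counts (-0.17).

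The putrescine terms passed for 3 members in Ecto cells, 4 in Endo cells and 3 in VK2 cells (all genes, 26.4%, 34.8% and 27.6%). The largest were those of H1-10 in Endo (0.95 ± 0.11), H2AX in VK2 (0.79 ± 0.093) and MACROH2A1 in Endo cells (-0.72 ± 0.040, adjusted p = 4.5e-14). In Ecto cells, where PUT alone already raised H2AX, its term was -0.15 ± 0.10 (adjusted p = 0.29). For spermidine 2 members passed in Endo cells, H1-10 (0.48 ± 0.11) and MACROH2A1 (-0.20 ± 0.040). In edgeR 0 passed in Ecto and 0 in VK2 cells, where 4 and 1 had an unadjusted p under 0.05 and DESeq2 called 3 and 1. The shares over all genes were 3.13%, 3.45% and 0.352%. H2AZ2 lost its putrescine interaction call in Ecto cells under no filter on low counts (-0.19). MACROH2A1 lost its putrescine interaction call in Ecto cells under no filter on low counts (-0.21). MACROH2A2 lost its putrescine interaction call in Endo cells under scaling by total counts (-0.12). H1-10 lost its putrescine interaction call in VK2 cells without NT+GV replicate 2 or 3, or NT+noGV replicate 1 or 2, or PUT+GV replicate 1 or 3, or PUT+noGV replicate 1, 2 or 3 (0.29 to 0.41), and under no filter on low counts (0.39). MACROH2A1 lost its putrescine interaction call in VK2 cells under scaling by total counts (-0.10). H1-10 lost its spermidine interaction call in Endo cells without NT+GV replicate 2 or 3, or NT+noGV replicate 1 or 2, or SPD+GV replicate 3, or SPD+noGV replicate 1 or 3 (0.39 to 0.48).

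**Figure D3:**
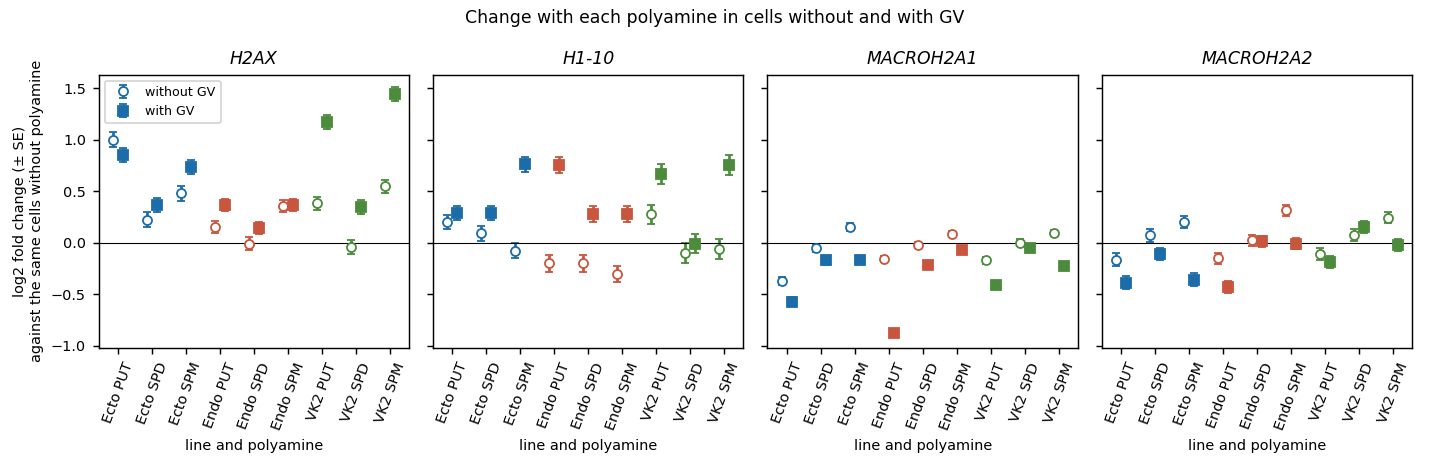
Log2 fold change (± SE, vertical axis) of 4 members with each polyamine against the same cells without polyamine, for each line and polyamine (horizontal axis). Open circles are cells without GV and filled squares cells with GV: for H1-10 the squares with SPM lie above and the circles below or near 0 in each line, and for MACROH2A1 the square lies below its circle throughout.

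Responses were also compared between lines in 1 model of all 72 libraries. The response to GV alone differed between Ecto and Endo for 5 members, between Ecto and VK2 for 6 and between Endo and VK2 for 4 (all genes, 28%, 27.5% and 25.8%). H3-3A is not among them, but its Ecto response minus that in VK2 cells, 0.48 ± 0.19 (adjusted p = 0.058, edgeR), passed in DESeq2 (0.49), scaled by total counts (0.59), without a filter (0.47) and summed with its pseudogenes (0.35). The Endo response of H3-3B was larger than that in Ecto (log2 difference, Ecto minus Endo, -0.59 ± 0.056) and VK2 cells (Endo minus VK2, 0.70 ± 0.056). The H2AX response in VK2 cells was smaller than in Ecto (Ecto minus VK2, 0.98 ± 0.10) or Endo (Endo minus VK2, 0.61 ± 0.10). With putrescine the counts were 5, 7 and 5 (all genes, 24.8%, 35% and 22.4%), with spermidine 0, 2 and 1 (0.722%, 5.16% and 1.13%) and with spermine 7, 3 and 6 (25.8%, 31.6% and 24.6%). With SPM+GV the VK2 response of H2AX exceeded that of Endo (Endo minus VK2, -1.03 ± 0.10) and of Ecto cells (Ecto minus VK2, -0.69 ± 0.10). At an unadjusted p under 0.05, 2 members differed between Ecto and Endo with spermidine in edgeR, where the adjusted count was 0, as it was in DESeq2.

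Paired variant genes can be weighed against each other within a library, where depth cancels. Only the H3.3 pair encodes 1 protein. The H2A.Z proteins differ at 3 of 128 residues, and the macroH2A proteins share 67.7% of theirs. The log2 ratio of H3-3B to H3-3A counts was 0.72 ± 0.10 in Ecto cells, 0.93 ± 0.21 in Endo cells and 0.77 ± 0.12 in VK2 cells when untreated (mean ± SD, n = 3). Over the 3 lines GV alone gave a mean within-line difference of 0.36 on the log2 scale (exact two-sided permutation test within lines, adjusted p = 0.038), but its parts were -0.094 in Ecto cells, 0.89 in Endo cells and 0.28 in VK2 cells. PUT+GV lowered the mean ratio in every line (-0.46 in Ecto cells, -0.46 in Endo cells and -0.12 in VK2 cells), with a mean within-line difference of -0.35 on the log2 scale (exact two-sided permutation test within lines, adjusted p = 0.0073). SPM+GV raised the mean ratio in every line, with a mean within-line difference of 0.40 on the log2 scale (exact two-sided permutation test within lines, adjusted p = 0.0039), made of 0.56 in Ecto cells, 0.18 in Endo cells and 0.46 in VK2 cells. Because H3-3A and H3-3B code for the same protein, the ratio concerns which gene supplies the mRNA, not the kind of histone.

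For H2A.Z, SPM+GV lowered the mean ratio of H2AZ2 to H2AZ1 counts in each line (-0.34 in Ecto cells, -0.15 in Endo cells and -0.22 in VK2 cells), with a mean within-line difference of -0.24 on the log2 scale (exact two-sided permutation test within lines, adjusted p = 0.0018). GV alone moved it by 0.029 in Ecto cells, 0.067 in Endo cells and 0.10 in VK2 cells (exact permutation test, adjusted p = 0.038). PUT+GV did not pass (-0.39 in Ecto cells, -0.015 in Endo cells and 0.044 in VK2 cells, exact permutation test, adjusted p = 0.11). The ratio of MACROH2A2 to MACROH2A1 rose with GV alone (0.23 in Ecto cells, 0.37 in Endo cells and 0.010 in VK2 cells, exact permutation test, adjusted p = 0.0096), with PUT+GV (0.18 in Ecto cells, 0.44 in Endo cells and 0.22 in VK2 cells, exact permutation test, adjusted p = 0.0018) and with SPD+GV (0.063 in Ecto cells, 0.23 in Endo cells and 0.20 in VK2 cells, exact permutation test, adjusted p = 0.0018). With SPM+GV the lines went different ways (-0.19 in Ecto cells, 0.060 in Endo cells and 0.20 in VK2 cells) and the mean did not pass. Without bacteria the ratio rose with SPM (0.044 in Ecto cells, 0.23 in Endo cells and 0.15 in VK2 cells, exact permutation test, adjusted p = 0.023). In all 21 tests were made, each over 8000 arrangements.

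**Figure D4:**
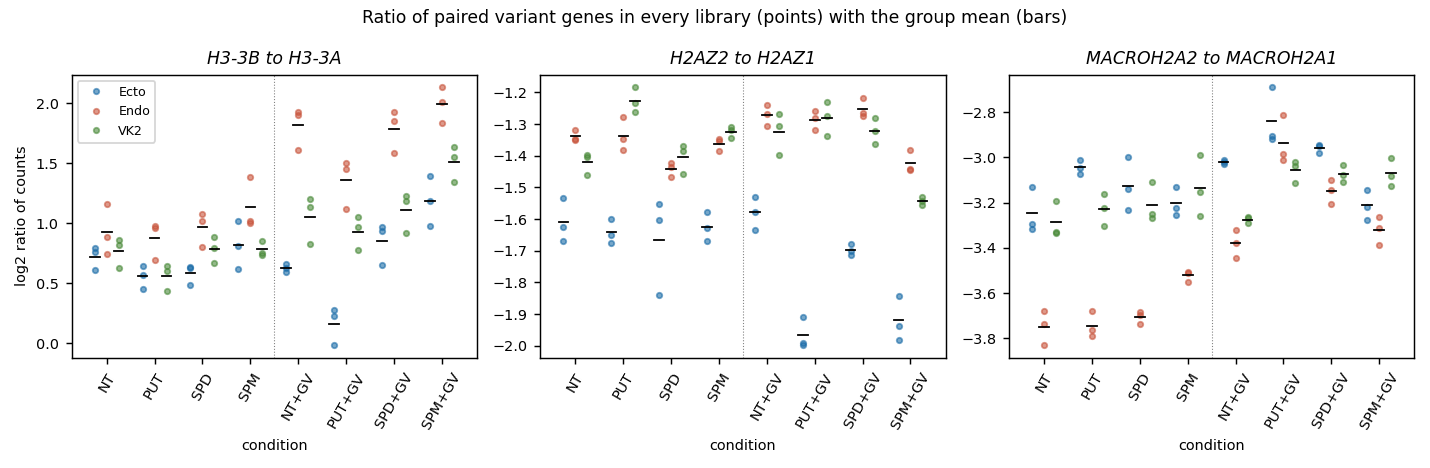
Log2 ratio of counts within each library for 3 pairs of variant genes over the 8 conditions, with points for libraries coloured by line and bars for group means. The H2AZ2 to H2AZ1 ratio of Ecto cells lies lowest with PUT+GV and SPM+GV, at group means of -1.97 and -1.92.

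A limit concerns H3-3A. Of its canonical transcript 76.8% of 31-base words also occur in transcripts of other genes, of which the processed pseudogene H3P6 held the most counts (12.1% of the H3-3A counts), against 14.2% for H3-3B, all with H3-5, 22.8% for H2AZ1, 16.99% for H2AZ2, 3.97% for H2AX, 3.22% for H2AJ, and 0 for H1-10 and both macroH2A genes. H3P6 took between 2.08% and 19.2% of the summed H3-3A and H3P6 counts, and this share moved with replicate number and with treatment. In Ecto replicates 1, 2 and 3 it was 6.87%, 10.7% and 12.7% in NT+noGV and 5.58%, 3.58% and 5.39% in NT+GV. With PUT+GV it was 15.8%, 15.8% and 7.18% there. In Endo cells it was 5.93%, 13.2% and 3.25% in NT+noGV and 17.4%, 17.2% and 6.53% in NT+GV. It was lowest in replicate 3 in 21 of 24 groups, with medians of 12.4%, 15.5% and 6.81% in replicates 1, 2 and 3. The exceptions were untreated Ecto and VK2 cells, lowest in replicate 1, and Ecto NT+GV, lowest in replicate 2. H3-3A was the noisiest member (SE 0.13 in Ecto, beside 0.050 for H3-3B). In most groups its own level was highest in replicate 3. The main model holds no term for the replicate number, so spread between numbers enters the SE of H3-3A. Calls that H3-3A gained with the number as a block are given with the alternatives below. The cause of the difference between replicate numbers was not tested. Counted together with its pseudogenes, an alternative added after seeing the data, it also passed in Ecto cells with PUT+GV (0.29) and PUT alone (0.25) and in VK2 cells with SPM alone (0.25).

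**Figure D5:**
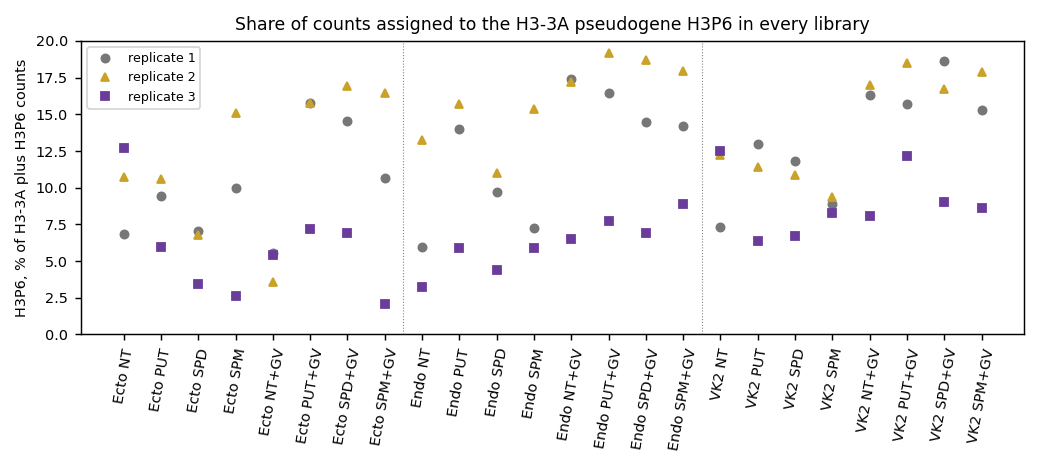
Share of the H3-3A plus H3P6 counts assigned to the pseudogene H3P6 (vertical axis, percent, from 0) in each library, over the 24 groups (horizontal axis), with markers for the replicate number. Replicate 3 (squares) lies lowest in 21 of the 24 groups.

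Genes of the machinery that places or reads the variants were counted in lists, to be read beside the shares of all genes given above for the same comparisons. Over all genes tested, median log2 fold changes lay between -0.017 and 0.075 with GV alone, PUT+GV, SPD+GV and SPM+GV. Of 9 genes that assemble or read H3.3, 0 rose and 3 fell in Ecto cells, 1 and 5 in Endo cells and 1 and 6 in VK2 cells for GV alone, and 3 rose and 3 fell in Ecto cells, 3 and 3 in Endo cells and 2 and 2 in VK2 cells with PUT+GV (median log2 fold changes -0.17, -0.13 and -0.20 with GV and -0.045, 0.0056 and 0.010 with PUT+GV, in the same order). DAXX, the chaperone that works with ATRX, rose with PUT+GV by 0.88 in Ecto cells, 0.26 in Endo cells and 0.46 in VK2 cells on the log2 scale, and with SPM+GV by 0.39, 0.35 and 0.42. ZMYND11, a reader of methylated H3.3, fell with PUT+GV (-0.74, -0.31 and -0.31). HIRA, which places H3.3 in active genes, fell with GV in Ecto (-0.17) and VK2 cells (-0.21).

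Of 21 genes that exchange or bind H2A.Z, 1 rose and 13 fell in Ecto cells, 0 and 10 in Endo cells and 1 and 4 in VK2 cells with GV alone, with median log2 fold changes of -0.24, -0.092 and 0.039. With SPM+GV 9 rose and 6 fell in Ecto cells, 9 and 7 in Endo cells and 6 and 6 in VK2 cells (medians 0.028, 0.021 and -0.086). EPC1 and EPC2, scaffold subunits of the NuA4/TIP60 complex, rose with SPM+GV in each line, EPC1 by 2.10, 1.30 and 1.25 on the log2 scale in Ecto, Endo and VK2. EPC2 rose by 1.30, 0.76 and 0.76. RUVBL1, an ATPase of the exchange complexes, fell with PUT+GV in Ecto (-0.59) and Endo cells (-0.47).

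The 9 genes listed as acting on H2A.X encode kinases, readers, ligases and the phosphatase subunit PPP4C. For GV alone 0 rose and 3 fell in Ecto cells (all genes, 20.9% and 23.7%). In Endo cells 2 rose and 4 fell (25.7% and 28.7%), and in VK2 cells 1 and 3 (13.9% and 12.5%). With PUT+GV 2 rose and 3 fell in Ecto cells, 3 and 5 in Endo cells and 2 and 4 in VK2 cells. Their median log2 fold changes were -0.13, -0.054 and -0.052 with GV alone and -0.095, -0.13 and 0.0084 with PUT+GV. ATM, a kinase of H2A.X, fell with GV by log2 fold changes of -0.49 in Ecto cells, -0.71 in Endo cells and -0.32 in VK2 cells. PPP4C rose with GV in Endo (0.17) and VK2 cells (0.12). TP53BP1, which binds marked chromatin, fell with PUT+GV in each line (-0.75, -0.67 and -0.35).

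Of 10 general histone chaperones, 3 rose and 4 fell in Ecto cells, 3 and 2 in Endo cells and 5 and 2 in VK2 cells with SPM+GV (medians 0.018, 0.039 and 0.13). CHAF1A, a subunit of the replication-coupled CAF-1 complex, rose with it in each line (0.42, 0.46 and 0.63), as did NASP, which holds free H3 and H4 (0.66, 0.43 and 0.86). Of 19 replication genes, 4 rose and 8 fell in Ecto cells, 9 and 5 in Endo cells and 2 and 1 in VK2 cells with GV alone (medians -0.079, 0.055 and 0.010). With PUT+GV 12 rose and 2 fell in Ecto cells, 15 and 3 in Endo cells and 11 and 3 in VK2 cells (medians 0.18, 0.23 and 0.17), and with SPM+GV 11 rose and 2 fell in Ecto cells, 13 and 4 in Endo cells and 14 and 2 in VK2 cells (medians 0.19, 0.25 and 0.42). CDC6, which licenses origins, rose with SPM+GV in each line (0.86, 0.65 and 0.96). With SPM alone 9, 16 and 18 replication genes rose in Ecto, Endo and VK2 cells and 0 fell. Over all genes tested 2196 of 19459, 1503 of 18741 and 3206 of 18474 rose with SPM alone, and 2376, 1884 and 2882 fell. The part of these shifts in the member changes was not tested.

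The replication-dependent histone genes, 69 protein-coding genes of which 59, 54 and 51 were tested in Ecto, Endo and VK2 cells, gave larger medians with SPM+GV. With SPM+GV 54 rose and 0 fell in Ecto cells, 30 and 4 in Endo cells and 45 and 0 in VK2 cells, at median log2 fold changes of 2.31, 0.75 and 2.99, against 0.20, -0.0084 and 0.22 for the 9 variants. Of these genes 1, 0 and 2 were at 0 in every NT+GV library, and with their changes set to the bound that 3 counts over the group allow, the medians were 2.31, 0.75 and 2.96. With SPD+GV 18 rose and 0 fell in Ecto cells, 11 and 0 in Endo cells and 5 and 1 in VK2 cells. Of the other variant genes listed, the centromeric CENPA fell with GV in each line (-0.17, -0.31 and -0.28). H3-5, a retrocopy that shares bases with H3-3B, rose with SPM+GV, from 3, 1 and 1 to 64, 107 and 74 counts in Ecto and from 2, 5 and 4 to 40, 53 and 43 counts in Endo cells, and reads of the pair cannot all be told apart.

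Likeness of pattern was described by Pearson's r of the group mean log2 CPM over the 24 groups, centred on each line, among 11987 genes. The points share libraries and treatments, so no p is given. Closest to H2AX were RANBP6 (r = 0.97), DNTTIP2 (0.97) and PNP (0.96). Near H1-10 lay AOC2 (r = 0.95) and FAM53C (0.94). H2AJ was followed by PLOD2 (r = 0.94), CXCL2 (0.90) and CXCL1 (0.89), of which CXCL1 and CXCL2 are neutrophil chemokines. H3-3B was followed by DHRS2 (r = 0.96), SPATA5L1 (0.95) and DDX5 (0.91), H3-3A by TWSG1 (r = 0.85), FMR1 (0.73) and NEK7 (0.70), and MACROH2A1 by ST13 (r = 0.99), SUMF1 (0.98) and EIF3K (0.98). Further neighbours were CD2BP2 (r = 0.90), MBD1 (0.89) and KHDC1 (0.89) for H2AZ1, STS (r = 0.91), AIF1L (0.88) and ENSG00000284428.1 (0.86) for H2AZ2 and TOMM70 (r = 0.92) and TXNDC9 (0.92) for MACROH2A2. Among the members themselves r was 0.88 between H2AX and H1-10, -0.85 between H1-10 and MACROH2A1, 0.80 between the macroH2A genes, 0.68 between the H2A.Z genes and -0.12 between the H3.3 genes.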

How the data were processed

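Total RNA from 72 libraries was sequenced by the study with the CORALL total RNA-seq kit after ribosomal RNA depletion. The authors estimated counts per transcript with Salmon on GENCODE release 44 (GRCh38.p13, per the labels), summed them to genes with tximeta and deposited whole-number expected counts for 62266 genes, not normalized. The kit adds molecular identifiers, and whether duplicate molecules were removed is not given in the sources used here. Salmon shares reads among similar transcripts, which matters for genes with close copies such as H3-3A. No rounding was needed, and no column lacked a sample.

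From these counts, genes were kept by filterByExpr (19459, 18741 and 18474 in Ecto, Endo and VK2, and 21195 over all libraries), scaled by TMM and tested with edgeR 4.0.16 (quasi-likelihood, robust) in R 4.3.3, with 1 model of 8 groups per line and 1 of all 72 libraries for comparisons between lines. Rose, fell, called and passed mean a Benjamini-Hochberg adjusted p under 0.05 over all genes of that comparison. Fold changes carry their standard error, and CPM were scaled over all libraries. Ratios of 2 genes were tested by exact permutation within lines, adjusted over 21 tests. Shared sequence was counted in 31-base words. DESeq2 1.42.0, other scalings, no filter, a replicate block, libraries left out and, added after seeing the data, sums with pseudogenes were the alternatives. The test was run on simulated data in which few genes changed, as many up as down, so that check cannot speak to the scaling. With totals of 20152143 to 42767996 counts, every member had a mean of at least 16.1 CPM in each group, so depth did not limit detection. All 9 members are named, from each gene list at most 4 genes for each comparison, taken by smallest adjusted p, and up to 3 genes most like each member, of which some are not reported here. Members and lists were chosen with earlier results of these data known. The deposited sample sheet holds no measurement and was not used.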

Additional observations from a re-analysis of the deposited data

Results flagged for a closer look

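The responses of the variants differed between cell lines in 51 cases by a test of the difference itself (edgeR, joint model of 72 libraries, adjusted p under 0.05 over 21195 genes), each value being the log2 response of the first line minus that of the second. For GV alone, Ecto minus Endo, it was -0.59 for H3-3B, 0.16 for H2AZ1, 0.12 for H2AZ2, 0.38 for H2AX and 0.34 for H1-10. For GV alone, Ecto minus VK2, it was 0.27 for H2AZ1, 0.20 for H2AZ2, 0.98 for H2AX, 0.29 for H2AJ, 0.51 for H1-10 and -0.13 for MACROH2A1. For GV alone, Endo minus VK2, it was 0.70 for H3-3B, 0.61 for H2AX, -0.13 for MACROH2A1 and 0.23 for MACROH2A2. For PUT+GV, Ecto minus Endo, it was 0.44 for H2AZ1, 0.44 for H2AX, -0.25 for H2AJ, -0.51 for H1-10 and 0.26 for MACROH2A1. For PUT+GV, Ecto minus VK2, it was -0.32 for H3-3B, 0.34 for H2AZ1, -0.37 for H2AX, -0.47 for H2AJ, -0.43 for H1-10, -0.21 for MACROH2A1 and -0.25 for MACROH2A2. For PUT+GV, Endo minus VK2, it was -0.31 for H3-3B, -0.15 for H2AZ2, -0.81 for H2AX, -0.47 for MACROH2A1 and -0.24 for MACROH2A2. For SPD+GV, Ecto minus VK2, it was -0.14 for MACROH2A1 and -0.28 for MACROH2A2. For SPD+GV, Endo minus VK2, it was -0.18 for MACROH2A1. For SPM+GV, Ecto minus Endo, it was 0.31 for H3-3B, 0.16 for H2AZ1, 0.33 for H2AX, 0.65 for H2AJ, 0.45 for H1-10, -0.14 for MACROH2A1 and -0.39 for MACROH2A2. For SPM+GV, Ecto minus VK2, it was -0.13 for H2AZ2, -0.69 for H2AX and -0.32 for MACROH2A2. For SPM+GV, Endo minus VK2, it was -0.40 for H3-3B, -0.17 for H2AZ1, -1.03 for H2AX, -0.62 for H2AJ, -0.43 for H1-10 and 0.21 for MACROH2A1. H2AJ gave values of both signs, with own responses to PUT+GV of -0.27 in Ecto, -0.062 in Endo and 0.16 in VK2 and to SPM+GV 0.55 in Ecto, -0.14 in Endo and 0.54 in VK2. MACROH2A1 had the same sign in all lines for GV alone (-0.26 in Ecto, -0.25 in Endo and -0.11 in VK2) and PUT+GV (-0.57 in Ecto, -0.87 in Endo and -0.41 in VK2) and differed in size.

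Leaving out replicate 1, 2 or 3 in every group, 18, 24 and 15 of these differences no longer passed, and 22 passed each time. Some were also lost under another scaling, tool or filter. H2AZ1 lost its GV alone difference call between Ecto and Endo cells under RLE size factors (0.15), and under no filter on low counts (0.14). H2AZ2 lost its GV alone difference call between Ecto and Endo cells under RLE size factors (0.12), and under no filter on low counts (0.11). H2AZ2 lost its GV alone difference call between Ecto and VK2 cells under no filter on low counts (0.20). MACROH2A1 lost its GV alone difference call between Ecto and VK2 cells under scaling by total counts (-0.013), and under no filter on low counts (-0.13). MACROH2A1 lost its GV alone difference call between Endo and VK2 cells under RLE size factors (-0.11), and under scaling by total counts (-0.045), and under no filter on low counts (-0.11). MACROH2A2 lost its GV alone difference call between Endo and VK2 cells under no filter on low counts (0.25). H2AZ2 lost its PUT+GV difference call between Endo and VK2 cells under no filter on low counts (-0.20). MACROH2A1 lost its SPD+GV difference call between Ecto and VK2 cells under RLE size factors (-0.13), and under scaling by total counts (-0.12), and under no filter on low counts (-0.12). MACROH2A2 lost its SPD+GV difference call between Ecto and VK2 cells under no filter on low counts (-0.26). MACROH2A1 lost its SPD+GV difference call between Endo and VK2 cells under scaling by total counts (-0.14), and under no filter on low counts (-0.18). H2AZ1 lost its SPM+GV difference call between Ecto and Endo cells under scaling by total counts (0.14), and under no filter on low counts (0.10). MACROH2A1 lost its SPM+GV difference call between Ecto and Endo cells in DESeq2 (-0.074), and under RLE size factors (-0.073). MACROH2A1 lost its SPM+GV difference call between Endo and VK2 cells under scaling by total counts (0.088), and under no filter on low counts (0.12).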

How the results depend on the processing

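No called result changed direction. Scaled by total counts, 5 that were not called turned sign and passed: H3-3B for PUT+GV in VK2 (-0.038 to 0.15), H2AZ1 (-0.0040 to 0.16) and H2AZ2 (-0.022 to 0.14) for the PUT interaction in Endo, MACROH2A1 for SPM against SPD in Ecto (0.0054 to -0.10) and H3-3B in level between Ecto and VK2 (-0.057 to 0.10). Under DESeq2, RLE size factors, total counts, no filter on low counts, the replicate block, a pseudocount of 1 and sums with pseudogenes, the counts of members passing stayed within 1.5 times and the ratio tests on their side of the threshold, except as follows. In DESeq2, the count became 3 (from 0) for the SPD interaction in Ecto, 4 (from 2) for PUT+noGV against NT+noGV in Endo and 1 (from 0) for the SPD interaction in VK2. With RLE size factors, the count became 3 (from 5) for the GV difference between Ecto and Endo and 1 (from 2) for the SPD+GV difference between Ecto and VK2. Scaled by total counts, the count became 2 (from 1) for SPD+GV against NT+GV in VK2, 1 (from 0) for the SPD interaction in VK2, 1 (from 2) for the SPD+GV difference between Ecto and VK2, 5 (from 3) for the SPM+GV difference between Ecto and VK2 and 0 (from 1) for the SPD+GV difference between Endo and VK2. Without a filter, the count became 1 (from 0) for SPD+noGV against NT+noGV in Ecto, 1 (from 3) for the PUT interaction in Ecto, 1 (from 0) for the SPD interaction in Ecto, 1 (from 0) for the SPD interaction in VK2, 1 (from 2) for the SPD+GV difference between Ecto and VK2, 5 (from 3) for the SPM+GV difference between Ecto and VK2 and 2 (from 4) for the GV difference between Endo and VK2. With the replicate number as a block, the count became 1 (from 0) for the SPD interaction in Ecto, 5 (from 2) for PUT+noGV against NT+noGV in Endo, 2 (from 1) for SPD+GV against NT+GV in VK2 and 1 (from 0) for the SPD interaction in VK2. With pseudogene counts added to H3-3A, the H3-3B to H3-3A ratio passed for PUT+noGV, at -0.16 (exact permutation test, adjusted p = 0.0044). The cause of these changes was not tested. Across genes same-numbered replicates correlated weakly (-0.059 to 0.11, no comparison with all 3 above 0.1), so numbers were not taken to pair samples. In 5 of 24 comparisons every library correlated best with its own number. H3P6 shares also moved with it. The block lost no member's call and added 21. Of these, 7 were of H3-3A (SPD+GV -0.26, PUT+noGV 0.26, SPM against SPD 0.19 and the SPD interaction -0.54 in Ecto, SPM+noGV 0.27 in VK2, and the GV difference of Ecto from Endo 0.39 and from VK2 0.49), and H2AZ1, H2AZ2 and H2AX were called higher for PUT+noGV in Endo (0.072, 0.075 and 0.15). Scaling by total counts moved the median log2 fold change of all genes by -0.14 to 0.19 relative to TMM, by over 0.1 in 9 of 45 comparisons. Leaving out a library or a replicate number, the count lay from 4 to 7 for PUT+noGV against NT+noGV in Ecto, from 1 to 3 for SPD+GV against NT+GV in Endo, from 1 to 3 for PUT+noGV against NT+noGV in Endo, from 3 to 6 for SPM+noGV against NT+noGV in Endo, from 1 to 2 for the SPD interaction in Endo, from 0 to 1 for the SPD interaction in VK2, from 1 to 4 for the GV difference between Ecto and Endo, from 3 to 4 for the PUT+GV difference between Ecto and Endo, from 3 to 6 for the SPM+GV difference between Ecto and Endo, from 2 to 5 for the GV difference between Ecto and VK2, from 0 to 1 for the SPD+GV difference between Ecto and VK2, at 2 throughout for the GV difference between Endo and VK2, from 3 to 4 for the PUT+GV difference between Endo and VK2 and at 0 throughout for the SPD+GV difference between Endo and VK2. Without replicate 1, 2 or 3 in every group, mean ratio differences ranged from 0.27 to 0.43 for H3-3B to H3-3A with GV, from -0.38 to -0.32 for H3-3B to H3-3A with PUT+GV, from 0.35 to 0.43 for H3-3B to H3-3A with SPM+GV, from 0.041 to 0.078 for H2AZ2 to H2AZ1 with GV, from -0.25 to -0.23 for H2AZ2 to H2AZ1 with SPM+GV, from 0.16 to 0.25 for MACROH2A2 to MACROH2A1 with GV, from 0.22 to 0.32 for MACROH2A2 to MACROH2A1 with PUT+GV, from 0.16 to 0.17 for MACROH2A2 to MACROH2A1 with SPD+GV, from 0.13 to 0.16 for MACROH2A2 to MACROH2A1 with SPM+noGV and from 0.033 to 0.11 for MACROH2A2 to MACROH2A1 with SPD+noGV. Their exact tests then have fewer arrangements. Members that passed once 1 library was left out were H1-10 in level between Endo and VK2 (0.22, without VK2 NT+noGV replicate 1), H1-10 for PUT+noGV in Endo (-0.29 to -0.25, without Endo NT+noGV replicate 3 or Endo PUT+noGV replicate 1), H2AJ for PUT+GV in Endo (-0.12, without Endo NT+GV replicate 3), H2AJ for the SPM interaction in Endo (-0.22 to -0.19, without Endo NT+GV replicate 3, Endo NT+noGV replicate 2 or Endo SPM+GV replicate 2), H2AJ for PUT+noGV in VK2 (0.19, without VK2 NT+noGV replicate 3), H2AJ for the SPM interaction in VK2 (0.25 to 0.26, without VK2 NT+GV replicate 2 or VK2 NT+noGV replicate 1), H2AX for PUT+noGV in Endo (0.19 to 0.21, without Endo NT+noGV replicate 2 or Endo PUT+noGV replicate 3), H2AX for SPD+GV in Endo (0.21, without Endo SPD+GV replicate 1), H2AX for GV in VK2 (0.19, without VK2 NT+GV replicate 1), H2AX for the SPD interaction in VK2 (0.48, without VK2 NT+GV replicate 2), H2AZ1 for SPM+noGV in Endo (0.10, without Endo SPM+noGV replicate 3), H2AZ2 for PUT+noGV in Endo (0.11, without Endo PUT+noGV replicate 3), H3-3B for the SPM interaction in Endo (-0.14, without Endo SPM+GV replicate 2), MACROH2A2 for the PUT interaction in Ecto (-0.30 to -0.27, without Ecto NT+noGV replicate 2 or Ecto PUT+GV replicate 1) and MACROH2A2 for GV in Endo (0.16, without Endo NT+noGV replicate 2). For differences in response between lines, whole replicate numbers were left out in place of single libraries. Depth limits no member here, but 3 libraries a group limit the precision.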
